A study of Mus musculus with 4 samples.

Results

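The genes described here are 34 genes expressed by phagocytes of the myeloid lineage (macrophages, monocytes and neutrophils). Some serve to recognise, engulf and destroy particles, and others, such as Ptprc, are shared with other white blood cells. The 34 genes were listed by gene symbol and matched to the array by the Entrez identifier in each probe set's name. Of the 34, 33 were measured, each by 1 probe set, among 16492 probe sets tested. Lyz1, a close copy of the lysozyme gene Lyz2, had no matching probe set and was not analysed here. Of the 33, 32 were named by the platform annotation, and Clec7a by the number in its probe set name only.

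RNA came from whole quadriceps of 4 mice, 1 Affymetrix array each. All 4 mice carry the strain label B6C3Fe a/a-Ttnmdm/J. The mdm mutant group held 2 mice with the titin mutation, and the wild type group 2 mice without it. The groups, and with them every direction given here, follow the genotype, source and description labels, which agree for each mouse. The array titles mark the mutants Ttn+ and the wild types Ttn-, which could be read the other way if taken as the intact gene. The Ttn probe set gave no check of these labels, with 12.66 and 12.68 in mutants and 12.58 and 12.65 in wild types (adjusted p = 0.564). The labels name a separate mouse for each array and state no age, sex, zygosity or litter. The mdm mutation, named for muscular dystrophy with myositis, is a spontaneous change in the gene for titin, the elastic giant protein of the sarcomere. Values are log2 RMA values, on which a step of 1 is a doubling. Mutant and wild type levels are compared within a gene, because probes of different genes are not on a common scale. Where genes are ranked by level, the rank describes the brightness of their probe sets. Differences are mdm mutant minus wild type ± the standard error from limma, with n = 2 mice per group, and a gene is said to rise or fall where its adjusted p lay under 0.05. The same mice gave every value, so the genes are not independent observations.

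Phagocytes bind antibody-coated targets through Fc receptors, complement-coated targets through integrins of the beta 2 class, and sugars of microbial walls through C-type lectins. Most of these receptors pass their signal through small adaptor proteins with an activation motif called ITAM. The target is then enclosed in a phagosome, where the NADPH oxidase makes superoxide and lysosomal enzymes digest the contents. In injured muscle, monocyte-derived macrophages clear dead fibres and take part in regeneration, while a small resident population is present in intact muscle.

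All 33 measured genes were higher in both mdm mutant mice than in both wild type mice. Such an order was found for 26.7% of all probe sets tested. By limma, 20 of the 33 passed the test as higher, 0 as lower and 13 in neither direction, against 6.46% of all probe sets that rose and 12.8% that changed in either direction. The median difference was 0.59 over the 33 genes and −0.02 over all probe sets. Differences ran from 0.13 for Itgam to 1.76 for Ctss, and 4 genes (Ctss, Mpeg1, Lyz2 and Cd52) were at least 2-fold higher. In whole muscle, more cells of a type and more RNA per cell cannot be told apart.

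The count of 20 depended on which mice were in the fit. Leaving out mdm mutant 1 gave 23 genes (3.86% of all probe sets rose), and leaving out mdm mutant 2 gave 11 (2.10%). Leaving out wild type 1 gave 4 (1.84%) and leaving out wild type 2 gave 5 (1.74%). The 3 genes that passed with any 1 mouse left out were Fcgr2b, Clec4n and Mpeg1. All 33 differences stayed above 0 in each of these fits.

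**Figure D1:**
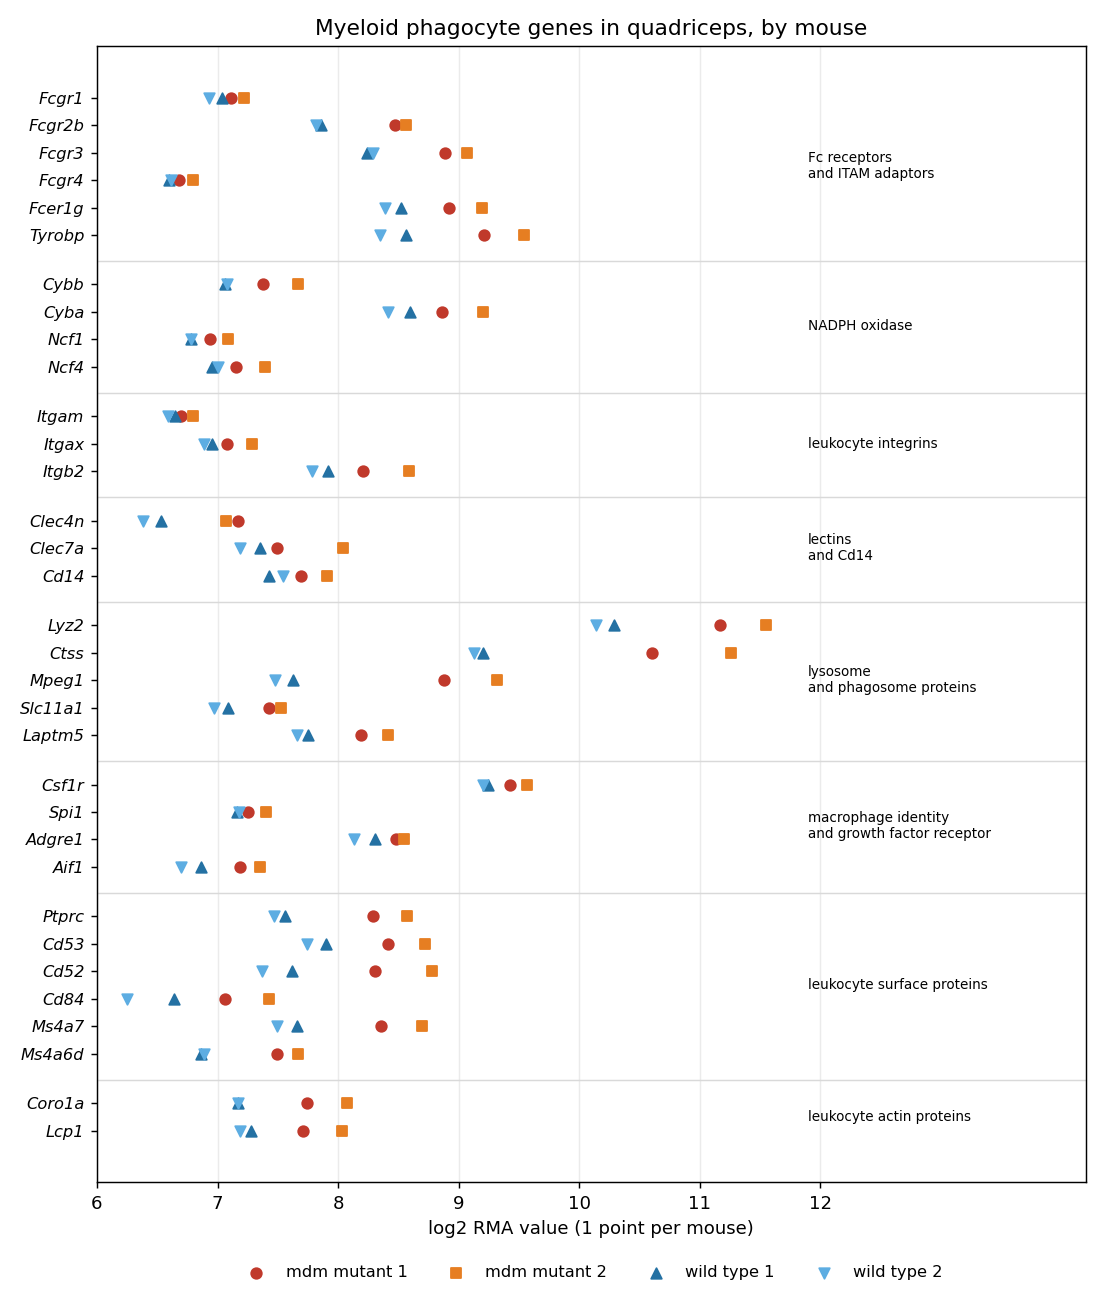
Log2 RMA value (horizontal axis) of the 33 measured genes, 1 symbol per mouse, grouped by role. In every row both mdm mutant symbols lie to the right of both wild type symbols, by as little as 0.04 for Itgam and as much as 1.40 for Ctss.

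The Fc receptors divided into a pair that rose and a pair with small differences. Fcgr2b, the inhibitory receptor for immunoglobulin G, stood at 8.47 and 8.56 in mutant muscle against 7.86 and 7.82 in wild type muscle, a rise of 0.68 ± 0.06 (1.60-fold, adjusted p = 0.00629). Fcgr3, an activating receptor of low affinity, stood at 8.89 and 9.07 against 8.24 and 8.29, a rise of 0.72 ± 0.07 (adjusted p = 0.00932). For both, the gap between the groups, 0.62 and 0.60, was far wider than the distance between the mutant mice, 0.09 and 0.18. Fcgr1, the receptor of high affinity, had values of 7.11 and 7.22 in mutants and 7.04 and 6.93 in wild types, and its difference of 0.18 ± 0.07 did not pass (adjusted p = 0.148). Fcgr4, another activating receptor, had 6.68 and 6.80 against 6.60 and 6.61 (0.13 ± 0.06, 95% interval −0.02 to 0.29, adjusted p = 0.202). Both genes kept their groups apart by 0.07 only, less than the distance of 0.11 between the mutant mice.

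The ITAM adaptors rose with Fcgr3. Fcer1g, the gamma chain that activating Fc receptors need for surface expression and signalling, stood at 8.92 and 9.19 in mutant against 8.52 and 8.39 in wild type muscle (0.60 ± 0.10, adjusted p = 0.0251). Tyrobp, the adaptor of Trem2 and other myeloid receptors, was at 9.21 and 9.54 against 8.56 and 8.35 (0.92 ± 0.13, 1.89-fold, adjusted p = 0.0167). In this role 4 of 6 genes rose, and the number was 1 without wild type 1 and 2 without wild type 2. Of 17 measured genes of Fc receptor signalling downstream, 2 rose and 0 fell, beside 6.46% of all probe sets that rose, with a median of 0.10. The 2 were the adaptor Blnk (0.32 ± 0.05, adjusted p = 0.0236) and the kinase Prkcd (0.29 ± 0.07, adjusted p = 0.0456). With any 1 mouse left out, 0 of the 17 rose.

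In the RefSeq gene order of GRCm38.p6, Fcgr2b, Fcgr4 and Fcgr3 are direct neighbours among protein-coding genes, so the gene with the smallest difference lies between those that rose. Fcgr2b and Fcgr3 are closely related in their antibody-binding part, and whether a probe set of one binds the transcript of the other was not tested. The 250 bases before the start of each gene (RefSeq, GRCm38.p6) are shown to compare this neighbourhood, with capitals for GAGGAA or its reverse complement TTCCTC, the core bound by PU.1, the myeloid transcription factor encoded by Spi1. Fcgr2b lies on the minus strand at chr1:170976072-170976321, Fcgr4 on the plus strand at chr1:171018676-171018925 and Fcgr3 on the minus strand at chr1:171059395-171059644.
Fcgr2b: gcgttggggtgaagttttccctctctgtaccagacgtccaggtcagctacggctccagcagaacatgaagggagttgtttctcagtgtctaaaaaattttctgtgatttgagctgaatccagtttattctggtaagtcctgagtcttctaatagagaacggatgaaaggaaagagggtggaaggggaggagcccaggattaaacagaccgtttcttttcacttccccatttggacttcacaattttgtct
Fcgr4: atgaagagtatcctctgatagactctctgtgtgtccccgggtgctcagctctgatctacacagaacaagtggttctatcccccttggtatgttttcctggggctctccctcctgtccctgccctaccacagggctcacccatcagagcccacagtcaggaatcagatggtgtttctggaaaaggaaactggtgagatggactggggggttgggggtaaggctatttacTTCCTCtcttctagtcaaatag
Fcgr3: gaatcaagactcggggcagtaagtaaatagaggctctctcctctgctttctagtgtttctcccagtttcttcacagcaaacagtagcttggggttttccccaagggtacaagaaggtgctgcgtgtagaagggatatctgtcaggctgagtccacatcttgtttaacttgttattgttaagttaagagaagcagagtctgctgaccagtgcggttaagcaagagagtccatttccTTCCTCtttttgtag
The core stands at position −22 of Fcgr4 and −15 of Fcgr3, counted back from the start, and is not in this stretch of Fcgr2b.

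All 4 measured subunits of the NADPH oxidase were higher in both mutant mice than in both wild type mice, as were 26.7% of all probe sets. Of the 4, 1 passed the test as higher, beside 6.46% of all probe sets. Cybb, the catalytic membrane subunit, stood at 7.38 and 7.67 in mutants against 7.06 and 7.08 in wild types, a rise of 0.46 ± 0.10 (1.37-fold, adjusted p = 0.0458). Its membrane partner Cyba was at 8.86 and 9.20 against 8.60 and 8.41, a slightly larger difference of 0.53 ± 0.13 that did not pass (adjusted p = 0.0552), since its mice lay further apart. Ncf1, the organiser of the cytosolic subunits, was at 6.94 and 7.09 against 6.78 in both wild type mice (0.23 ± 0.07, adjusted p = 0.081). Ncf4, a cytosolic subunit that binds membrane lipids, was at 7.15 and 7.39 against 6.95 and 7.0 (0.30 ± 0.09, adjusted p = 0.0867). The number that passed was 3 without mdm mutant 1 and 0 without any other mouse, and the median difference of 0.38 was 0.25 without mdm mutant 2. Among 10 other measured oxidase genes and regulators 1 rose, near the 6.46% of all probe sets, and 0 fell (median 0.17), namely Hvcn1, the proton channel that balances the charge of oxidase activity (0.29 ± 0.05, adjusted p = 0.0269). This count was 1 without wild type 2 and 0 without each of the other mice.

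None of the 3 leukocyte integrin genes passed the test by limma. In the same fit 2 of 3 had an unadjusted p under 0.05, as did 5065 of all 16492 probe sets. Itgb2, the shared beta chain of this integrin class, stood at 8.21 and 8.59 in mutant against 7.92 and 7.78 in wild type muscle (0.55 ± 0.13, adjusted p = 0.0561). Itgax, the alpha chain abundant on dendritic cells and some macrophages, was at 7.08 and 7.29 against 6.95 and 6.89 (0.27 ± 0.08, adjusted p = 0.0969). Itgam, the alpha chain of the complement receptor of macrophages and neutrophils, was at 6.70 and 6.80 against 6.65 and 6.59. Its difference of 0.13 ± 0.06 (95% interval −0.03 to 0.29, adjusted p = 0.228) was the smallest of the 33 genes, with the groups 0.04 apart. With trend and robust moderation, and without mdm mutant 1, 1 of the 3 passed. With centring on the hybridization controls Itgax and Itgb2 passed (adjusted p = 0.0385 and 0.0294), and both also lay under a threshold of 0.1. The stretch before Itgam, on the plus strand at chr7:128062390-128062639, is shown because it holds the PU.1 core at 2 positions, −84 and −15, beside so small a difference.
Itgam: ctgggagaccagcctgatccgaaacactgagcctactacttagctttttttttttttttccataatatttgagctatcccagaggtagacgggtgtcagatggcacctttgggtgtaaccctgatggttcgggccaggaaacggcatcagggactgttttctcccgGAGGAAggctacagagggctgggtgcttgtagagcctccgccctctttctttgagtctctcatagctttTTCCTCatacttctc

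Other genes of integrin function moved in part. Of 15 measured integrin chains, ligands and activators, 4 rose, 1 fell and 10 did not pass (median 0.06), beside 6.46% of all probe sets that rose. Skap2 and Fermt3, which help to switch leukocyte integrins to the binding state, rose by 0.40 ± 0.06 and 0.42 ± 0.09 (adjusted p = 0.0207 and 0.0467). Icam1, a ligand of Itgb2 integrins, rose by 0.40 ± 0.07 (adjusted p = 0.0253), and Itgb1, a beta chain of many cell types, by 0.32 ± 0.06 (adjusted p = 0.0345). Thy1, a surface protein of several cell types that leukocyte integrins can bind, fell by 0.43 ± 0.06 on the log2 scale (adjusted p = 0.0133). Of these genes 3 rose without mdm mutant 1 and 0 without each of the other mice, and the number that fell was between 0 and 2.

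Among the lectins and Cd14, 1 of 3 rose, beside 6.46% of all probe sets. Clec4n, a lectin for fungal mannans that signals through Fcer1g, stood at 7.17 and 7.07 in mutants against 6.53 and 6.38 in wild types, a rise of 0.67 ± 0.07 (1.59-fold, adjusted p = 0.0102). It was the 1 gene of the 33 in which mdm mutant 1 lay above mdm mutant 2. Clec7a, the lectin for beta-glucans, was at 7.49 and 8.04 against 7.35 and 7.19, and its difference of 0.50 ± 0.18 did not pass (adjusted p = 0.135). The mutant mice lay 0.54 apart in Clec7a, more than the difference between the groups. Cd14, a coreceptor for bacterial lipopolysaccharide, was at 7.69 and 7.91 against 7.43 and 7.54 (0.32 ± 0.09, adjusted p = 0.0769). The number that passed was 2 without mdm mutant 1, and the median difference of 0.50 was 0.22 without mdm mutant 2.

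Some other lectins of the same gene family rose beside Clec4n. Of 21 measured lectins and pattern receptors, 4 rose, 1 fell and 16 did not pass (median 0.15), beside 6.46% of all probe sets that rose. Clec4e, of the same family, did not pass and was dim, at the 4.09th percentile of wild type levels. It stood at 6.12 and 6.15 in mutants against 6.07 and 6.1 in wild types (0.05 ± 0.05, adjusted p = 0.539). Clec4d, a receptor for mycobacterial glycolipids, rose by 0.64 ± 0.07 (adjusted p = 0.0096), and Clec4a3 and Clec4a2 by 0.80 ± 0.10 and 0.51 ± 0.09 (adjusted p = 0.0123 and 0.0249). Tlr4, the signalling receptor for lipopolysaccharide that works with Cd14, stood at 7.67 and 7.74 in mutants against 6.93 and 7.18 in wild types (0.65 ± 0.09, adjusted p = 0.0174). Cd209f, a lectin of resident macrophages in several mouse tissues, fell by 0.44 ± 0.05 on the log2 scale (adjusted p = 0.0118). The number that rose was between 2 and 3 with 1 mouse left out.

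The median differences of the roles were 0.64 for Fc receptors and adaptors, 0.50 for lectins and Cd14, 0.38 for the oxidase and 0.27 for the integrins. Whether these roles differ from each other was not tested. The roles hold 3 to 6 genes each, and their ranges overlap: 0.13 to 0.92, 0.32 to 0.67, 0.23 to 0.53 and 0.13 to 0.55.

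**Figure D2:**
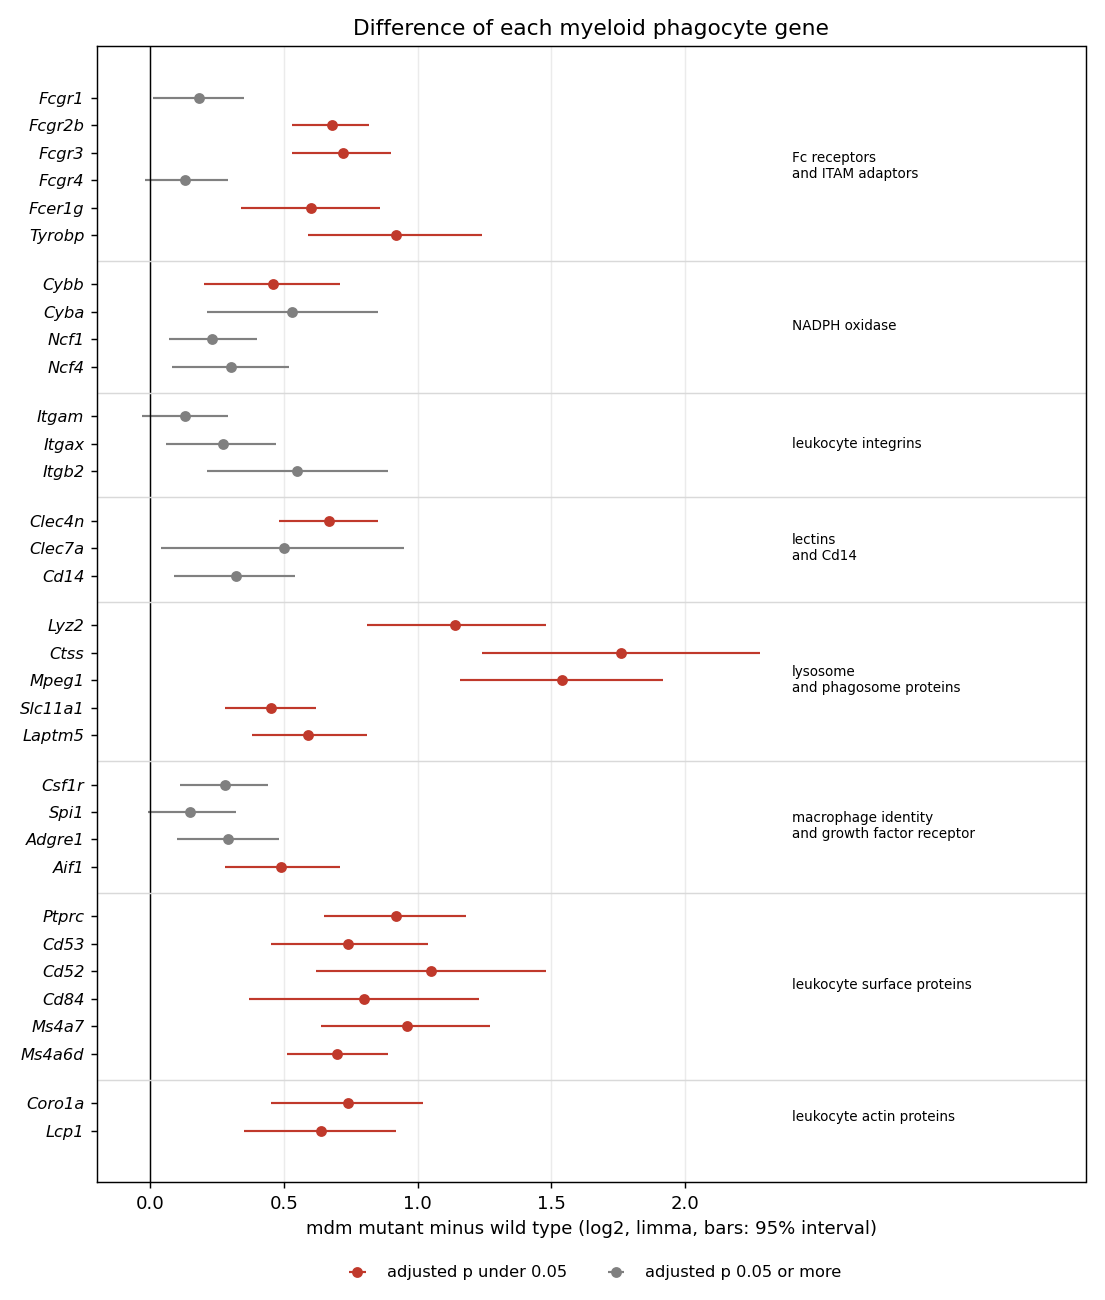
Difference between mdm mutant and wild type muscle on the log2 scale with its 95% interval from limma (n = 2 mice per group), by role. Red points passed the test and grey points did not, and intervals of Fcgr4, Itgam and Spi1 reach below 0.

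The 3 largest differences, those of Ctss, Mpeg1 and Lyz2, belonged to proteins that act inside the phagosome and lysosome. All 5 measured genes of that role rose (median 1.14), beside 6.46% of all probe sets. Ctss, the lysosomal protease cathepsin S that prepares the class II invariant chain for antigen loading, stood at 10.60 and 11.26 in mutant against 9.20 and 9.13 in wild type muscle. It rose by 1.76 ± 0.21 (3.39-fold, 95% interval 1.24 to 2.28, adjusted p = 0.0115). Mpeg1, a pore-forming protein of the phagosome, was at 8.88 and 9.32 against 7.63 and 7.48 (1.54 ± 0.15, 2.92-fold, adjusted p = 0.00824). Lyz2, the lysozyme of macrophages and neutrophils, was at 11.17 and 11.55 against 10.29 and 10.14 (1.14 ± 0.13, 2.21-fold, adjusted p = 0.0111). In all 3 genes the gap between the groups, at least 0.88, exceeded the distance between the mice of either group. Part of the Lyz2 signal could come from Lyz1 transcripts, which was not tested.

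Slc11a1, the metal ion transporter of the phagosome membrane, and Laptm5, a lysosomal membrane protein of blood cells, rose less. Slc11a1 stood at 7.43 and 7.53 in mutants against 7.09 and 6.97 in wild types (0.45 ± 0.07, adjusted p = 0.0185), and Laptm5 at 8.19 and 8.41 against 7.75 and 7.66 (0.59 ± 0.09, adjusted p = 0.018). Of the 5 genes, 3 passed with mdm mutant 2 left out, 2 with wild type 1 left out and 1 with wild type 2 left out. Ctss had adjusted p = 0.0584 without wild type 1 and 0.0623 without wild type 2, and its difference lay between 1.43 and 2.09 over the fits with a mouse left out.

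The stretches before Ctss, on the plus strand at chr3:95526536-95526785, and before Mpeg1, on the plus strand at chr19:12460520-12460769, are shown because they belong to the 2 largest rises. The PU.1 core stands once before Ctss, at −164, and is not in the stretch before Mpeg1.
Ctss: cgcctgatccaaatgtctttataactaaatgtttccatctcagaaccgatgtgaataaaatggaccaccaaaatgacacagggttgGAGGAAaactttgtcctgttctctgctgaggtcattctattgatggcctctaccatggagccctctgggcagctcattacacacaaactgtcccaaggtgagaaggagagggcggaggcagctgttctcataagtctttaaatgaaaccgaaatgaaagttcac
Mpeg1: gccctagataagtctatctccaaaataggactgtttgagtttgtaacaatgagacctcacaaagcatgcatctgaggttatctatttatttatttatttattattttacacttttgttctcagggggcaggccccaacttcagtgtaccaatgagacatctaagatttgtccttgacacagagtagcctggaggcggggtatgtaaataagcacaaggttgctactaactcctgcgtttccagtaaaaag

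The genes grouped as macrophage identity and growth factor receptor had a median difference of 0.28. Of these 4 genes 1 rose, beside 6.46% of all probe sets. Csf1r, the receptor for the growth factor on which macrophages depend, stood at 9.43 and 9.57 in mutants against 9.24 and 9.20 in wild types (0.28 ± 0.07, adjusted p = 0.0525). Adgre1, a surface receptor widely used as a macrophage marker in mice, was at 8.48 and 8.55 against 8.31 and 8.13 (0.29 ± 0.07, adjusted p = 0.0624). Spi1, the gene for PU.1, was at 7.25 and 7.40 against 7.16 and 7.18 (0.15 ± 0.07, 95% interval −0.01 to 0.32, adjusted p = 0.195). Aif1, an actin-binding protein of macrophages and microglia, was the 1 of the 4 that rose, from 6.86 and 6.70 to 7.19 and 7.35 (0.49 ± 0.09, adjusted p = 0.0252). It did not pass without mdm mutant 2, wild type 1 or wild type 2, where its adjusted p lay between 0.0624 and 0.105. Differences between genes were not tested.

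All 6 leukocyte surface genes rose (median 0.86), beside 6.46% of all probe sets. Ptprc, the CD45 phosphatase carried by all white blood cells, stood at 8.29 and 8.57 in mutant against 7.56 and 7.47 in wild type muscle (0.92 ± 0.10, 1.89-fold, adjusted p = 0.0109). Cd52, a short lipid-anchored glycoprotein, was at 8.31 and 8.78 against 7.62 and 7.37 (1.05 ± 0.17, 2.07-fold, adjusted p = 0.0229). Ms4a7 and Ms4a6d, membrane proteins of macrophages, rose by 0.96 ± 0.13 and 0.70 ± 0.07 (adjusted p = 0.0141 and 0.0094). The tetraspanin Cd53 rose by 0.74 ± 0.12 (adjusted p = 0.0213). Cd84, a self-binding receptor of the SLAM family, was at 7.06 and 7.43 against 6.64 and 6.25 (0.80 ± 0.17, adjusted p = 0.0413). The mice of a group lay 0.36 and 0.39 apart in Cd84, nearly the gap of 0.42 between the groups, and it did not pass in any fit with a mouse left out.

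Coronin 1A (Coro1a) and plastin 2 (Lcp1), actin-binding proteins of white blood cells, both rose, beside 6.46% of all probe sets. Coro1a stood at 7.74 and 8.07 in mutants against 7.17 in both wild type mice (0.74 ± 0.11, adjusted p = 0.0201), and Lcp1 at 7.71 and 8.03 against 7.28 and 7.19 (0.64 ± 0.11, adjusted p = 0.0267). With mdm mutant 2 left out 3 of the 6 surface genes and 1 actin gene passed, with wild type 1 left out 0 and 0, and with wild type 2 left out 1 and 0. Without wild type 1, adjusted p was 0.0509 for Ptprc and 0.0882 for Coro1a by limma.

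The mutant mice differed from each other in a shared direction. In 32 of the 33 genes mdm mutant 2 lay above mdm mutant 1, by a median of 0.24, whereas 49.3% of all probe sets had that order. Wild type 1 lay above wild type 2 in 25 of the 33 genes, by a smaller median of 0.09, against 49.5% of all probe sets. The mean level of the 33 genes was 8.06 and 8.31 in mdm mutant 1 and 2, and 7.61 and 7.52 in wild type 1 and 2. Across the 33 genes, those with larger differences also had mutant mice further apart (Spearman's rho = 0.65, Pearson's r = 0.67, across genes). That relation is a description, since mdm mutant 2 enters both measures and the genes share the same 4 arrays.

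Markers of other cells were read in the same mice. Of 10 measured neutrophil markers 4 rose and 0 fell (median 0.41), beside 6.46% of all probe sets that rose. The mean levels of the 10 were 7.52 and 7.90 in the mutants and 6.96 and 7.0 in the wild types, so mdm mutant 2 was again the highest. The calprotectin genes S100a8 and S100a9 rose by 2.43 ± 0.26 and 2.08 ± 0.22 (adjusted p = 0.0094 and 0.00932), and the granule genes Camp and Ngp by 0.80 ± 0.13 and 0.89 ± 0.17. The 6 that did not pass were Ltf (0.50 ± 0.14), Mpo (0.32 ± 0.25), Mmp8 (0.21 ± 0.10), Csf3r (0.11 ± 0.05), Cxcr2 (0.02 ± 0.07) and Elane (−0.05 ± 0.06). In 7 of the 10 both mutant mice lay above both wild type mice, Ltf, Mmp8 and Csf3r among them. Of all probe sets tested, 26.7% had that order. Fc receptor, oxidase, integrin and lysozyme genes are also used by neutrophils, and the part of these cells in the differences was not tested. Neutrophil markers that rose numbered 6 with mdm mutant 1 left out and 4 with mdm mutant 2 left out, but 0 and 2 with wild type 1 or 2 left out. Of 10 T cell, 6 B cell and 8 NK cell markers, 0 rose and 0 fell by limma (1, 0 and 1 had an unadjusted p under 0.05). Of 9 mast cell and eosinophil markers 0 passed by limma as well (1 with an unadjusted p under 0.05). The medians of these 4 lists lay between −0.02 and 0.00. The T, B and NK cell markers were mostly dim, with median wild type levels at the 26.8th, 18.8th and 19.6th percentile of all probe sets.

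Endothelial markers ran the other way, with 0 of 12 differences above 0 (median −0.29), beside 7317 of all 16492 probe sets. Of the 12, 0 rose and 2 fell, beside 1049 of all 16492 probe sets that fell. The 2 were Pecam1 and Robo4, which fell by 0.33 ± 0.07 and 0.44 ± 0.10 on the log2 scale. Those that fell numbered 7 with mdm mutant 1 left out, 0 with mdm mutant 2 or wild type 1 left out, 1 with wild type 2 left out and 0 with centring on hybridization controls. Their mean level was 8.39 and 8.06 in mdm mutant 1 and 2 against 8.55 and 8.49 in the wild types, lowest in the mouse with the highest phagocyte genes. Fibroblast markers had a median of −0.03, with 1 gene up (Lum) and 1 down (Thy1) of 10, beside 6.46% of all probe sets that rose. The 10 muscle fibre markers, among them Acta1 and Ckm, had mean levels between 14.22 and 14.26 in all mice, at the top of the scale, as the tissue label says. Acta1 held the highest value of the array, 14.98, in every mouse. Quantile normalization gives each array the same set of values, so markers at the very top, such as Acta1, can hardly differ between arrays. Over the 10 markers the differences ran from −0.20 to 0.05, and 0 passed by limma. Whether fibre RNA differed between the groups was not settled by these markers. The part of endothelium or tissue makeup in the phagocyte genes was not tested.

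**Figure D3:**
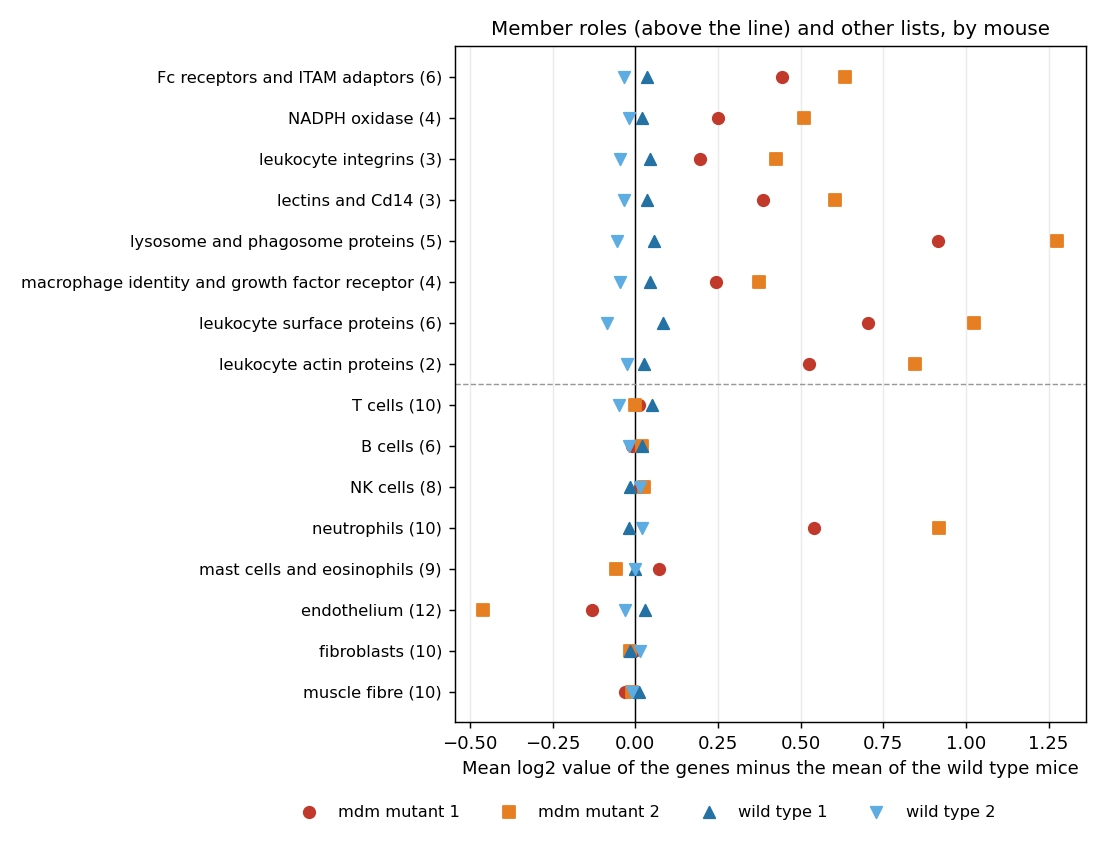
Mean log2 value of each role or marker list (number of genes measured in brackets) for each mouse, minus the mean of the wild type mice. Above the dashed line every role has mdm mutant 2 furthest right, then mdm mutant 1. Below it the neutrophil list is higher in mutants, and the endothelial list is lower and lowest in mdm mutant 2.

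Dim and bright genes both contributed. In wild type muscle 16 of the 33 genes lay below the median level of all probe sets, and 8 of these rose (median 0.45), beside 4.03% of all probe sets below that median. Of the 17 brighter genes 12 rose (median 0.72), beside 8.90%. Across the 33 genes wild type level and difference had a Spearman's rho of 0.43 and a Pearson's r of 0.44, given as a description, since the genes share 4 arrays and probes differ in brightness. Small differences were not confined to dim probe sets: Csf1r lay at the 87.8th percentile of wild type levels and differed by 0.28, while Cd84 and Clec4n lay at the 16.9th and 17.3rd and rose by 0.80 and 0.67.

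**Figure D4:**
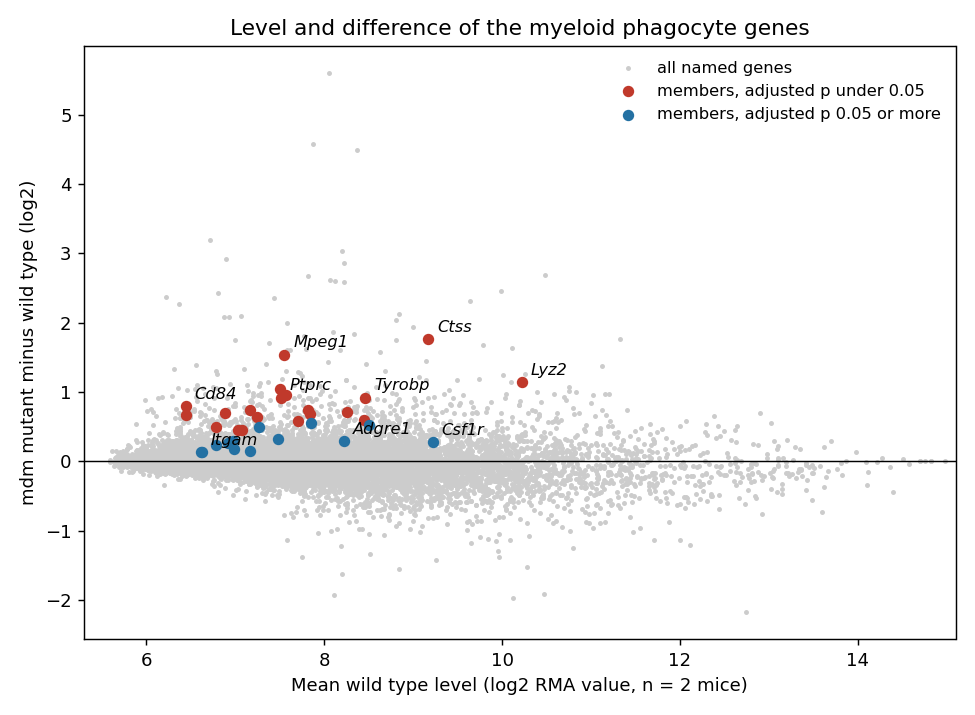
Mean wild type level (horizontal axis, log2 RMA value) against the difference between mdm mutant and wild type muscle (vertical axis, log2) for all named genes in grey and the 33 phagocyte genes in colour. All 33 lie above 0, with Ctss highest at 1.76.

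Several calls lay near the threshold. Just inside it were Cybb (adjusted p = 0.0458) and Cd84 (0.0413), and just outside Csf1r (0.0525), Cyba (0.0552) and Itgb2 (0.0561). With each array centred on its 18 hybridization control probe sets, a scaling that moved the median of all probe sets by 0.11, 29 of the 33 rose and the median was 0.71. Under that scaling 2829 probe sets rose and 603 fell, in place of 1066 and 1049, and 17.2% of all probe sets were higher.

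Promoters were compared over 300 bases, 250 before and 50 after the start, for the 24 listed genes with an entry in the RefSeq table, which gave 30 promoters. GAGGAA, on either strand, was in 16 of the 30 (53.3%) and in 26.8% of 15476 promoters of measured genes. The promoters of the listed genes were poorer in G and C, with a median of 45.5% against 59.0%. Among promoters under 50% GC, 12 of 19 held the core, beside 31.3% of promoters of measured genes, and among the others 4 of 11, beside 25.7%. Among measured genes, 10 of 14 with the core rose (median 0.55), and 6 of 9 without it (median 0.64). TTGCNNAA, bound by C/EBP factors, was in 3 of 30 (10%, beside 9.18%), TGANTCA, bound by AP-1, in 4 (13.3%, beside 6.32%), and a loose NF-kB pattern, GGG and CC with 5 bases between them, in 13 (43.3%, beside 62.9%). A match describes letters and does not show binding, and neighbouring starts of a gene share bases.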

How the data were processed

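RNA of 4 quadriceps was labelled as biotin cRNA and hybridised, 1 Affymetrix array per mouse, as the labels' protocols describe. The deposited values are log2 expression values that the authors made with RMA (background correction, quantile normalization, probe set summary), per the submitters' processing notes. No array model is named in the sources used here. The table held 16553 probe sets, of which 61 controls were left out. Quantile normalization would hide a shift of most genes in 1 direction, and no detection calls were given. The number of arrays, 2 per group, limits the precision.

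Of the 16492 probe sets tested, 15270 had 1 gene symbol in the platform annotation, 0 had several and 1222 were not listed. Symbols were updated by Entrez identifier from RefSeq (GRCm38.p6). The number in the probe set name equals that identifier for 15250 annotated probe sets, and only Clec7a was named from it alone.

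Groups follow the genotype labels. Replicate numbers name mice in accession order and pair none. Differences were fitted with limma 3.58.1 in R 4.3.3 (lmFit, eBayes, no covariates, 5.35 total degrees of freedom), adjusting p by Benjamini-Hochberg across the 16492 tested. The fit was run on simulated arrays with known differences, to check that it returns their size. Noise there was drawn independently for each gene, so calls for genes that move together were not tested. Lists are described by counts and medians, with no list test. All 34 listed genes could be named, and of each other list up to 4 genes that passed, by smallest p. Fermt3, Clec4a2, Clec4e, Mertk, Axl, Acta1, Ckm, Ttn and the neutrophil genes that did not pass are named outside that rule. All of these were chosen after their values were seen. The genes and lists were chosen with earlier results of these data known. The alternatives tried were: without the dimmer 50%, trend and robust moderation, no moderation, median centring, repeated quantile normalization, centring on hybridization controls, thresholds of 0.01 and 0.1, the mean of a gene's probe sets and each mouse left out. Leaving out Clec7a was added after seeing the data. Figures used matplotlib 3.10.9 in Python 3.11.15.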

Additional observations from a re-analysis of the deposited data

How the results depend on the processing

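Median centring and repeated quantile normalization changed no call among the 33 genes, but had little to move in arrays already quantile normalized, and averaging could change none, since each gene had 1 probe set. Leaving out Clec7a left the count at 20. No difference changed sign under any alternative run, and the median over the 33 genes lay between 0.47 and 0.72. Without variance moderation 1 probe set passed in all and 0 of the 33 genes or the pathway lists (14 of the 33 and 3286 of all probe sets had an unadjusted p under 0.05 in limma's unmoderated fit). At an adjusted p under 0.01, 304 probe sets passed in either direction, and 4 of the 33 genes and 3 pathway genes rose. The 4 were 2 Fc receptor genes, 1 lysosomal gene, 1 surface gene and 0 in the other roles. At 0.1, 3719 probe sets passed in either direction, and 28 of the 33 genes and 32 pathway genes rose. The share of all probe sets that rose is not given for thresholds of 0.01 and 0.1. Among the 28 were all 4 oxidase genes, 2 integrins, 2 of the lectins and Cd14, and 3 identity genes. With hybridization controls 3432 probe sets passed in either direction, and 29 of the 33 genes and 40 pathway genes rose. The same 4 roles then had 4, 2, 2 and 3 genes that rose. With trend and robust moderation 2 oxidase genes and 1 integrin passed, and 7.18% of all probe sets rose. Without the dimmer 50% of probe sets, 21 of the 33 genes were left, and 10.2% of the probe sets kept in the fit rose. In that fit 2 oxidase genes passed and 0 of the lectins and Cd14 and of the identity genes, because Clec4n and Aif1 were removed. The lysosomal median was then 1.34 and the integrin median 0.55, over fewer genes.

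With each mouse left out, 490 to 1182 probe sets passed, 4 to 23 of the 33 genes, 1 to 4 Fc receptor genes, 0 to 3 oxidase genes, 0 to 1 integrins, 1 to 2 of the lectins and Cd14, 1 to 5 lysosomal genes, 0 to 1 identity genes, 0 to 5 surface genes, 0 to 2 actin genes and 5 to 13 pathway genes. A group is then 1 mouse, assumed to vary like the other group, and fewer samples alone raise p. Probe sets were counted in either direction, and the listed and pathway genes as rises only. No paired analysis was possible because the labels give no number that mice of both groups share.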

Other observations

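Receptors and other proteins that take part in clearing dead cells and debris were read beside the phagocyte genes. Of 15 measured scavenger and clearance genes, 3 rose, 0 fell and 12 did not pass (median 0.09), beside 6.46% of all probe sets that rose. Gas6, the bridging ligand between dying cells and the receptors Mertk and Axl, stood at 11.52 and 11.53 in mutants against 10.25 and 10.26 in wild types (1.26 ± 0.05, adjusted p = 0.0012). Mertk and Axl themselves did not pass (0.35 ± 0.09 and 0.09 ± 0.08, adjusted p = 0.0624 and 0.514). Anxa1, a lipid-binding protein that limits inflammation, stood at 11.34 and 11.49 against 10.23 and 10.21 (1.19 ± 0.07, adjusted p = 0.00297), and the endocytic receptor Lrp1 rose by 0.51 ± 0.08. In Gas6 the mice of each group lay at most 0.01 apart. Between 2 and 4 of these genes rose with any 1 mouse left out.

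Of 12 inhibitory myeloid receptors 1 rose, Pilra (0.33 ± 0.06, adjusted p = 0.031), near the 6.46% of all probe sets that rose, and 0 fell (median 0.09). No gene of this list rose with a mouse left out. Of 18 myeloid growth factor and transcription factor genes 2 rose, beside the same 6.46%, and 0 fell (median 0.16). Id2, an inhibitor of helix-loop-helix factors that muscle cells also express, stood at 8.76 and 9.26 in mutants against 7.71 and 7.75 in wild types (1.28 ± 0.16, adjusted p = 0.013), and Runx1, which is also induced in denervated or diseased muscle fibres, rose by 0.33 ± 0.06 (adjusted p = 0.0328). The number that rose in this list was 4 without mdm mutant 1 and 0 without wild type 1.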
